A study of Mus musculus with 9 samples.

Results

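Collagen chain genes are the genes that encode the alpha chains of the collagens. They were taken as every row of the deposited count table whose symbol reads Col, a type number, the letter a and a chain number, with at least 10 counts summed over the 9 libraries. That rule gave 44 genes of 27 collagen types among 55335 rows, and all 44 rows of matching name met the count minimum. By type number, 11 were fibrillar chains, 6 were type IV chains of basement membranes, 9 were fibril-associated chains and 18 fell into a mixed class, here called the other collagens.

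RNA was sequenced from the leg muscles of 9 mice, 1 library a mouse. Every mouse was WT, of a strain spelled c57b6l in the labels, and carried a hindlimb injury whose name in the labels joins suspension and ischaemia. The control group of 3 mice had no treatment, the aspirin group of 3 had aspirin, and the hydrogel group of 3 had aspirin with a peptide hydrogel. Muscle without injury and hydrogel without aspirin were not analysed here, so the comparisons are among injured muscles. The labels give no sex, age, dose or time, and they describe separate mice. Values by library are given in the order of replicates 1, 2 and 3 of a group.

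A collagen is a trimer of alpha chains wound into a triple helix, made from 1, 2 or 3 different genes. Fibrillar collagens form the tensile fibrils of the connective tissue around muscle fibres, type IV collagen forms the sheet in the basement membrane of muscle fibres and capillaries, and fibril-associated collagens sit on the surface of fibrils. Type VI collagen forms beaded filaments next to the muscle basement membrane, and loss of its chains causes inherited myopathies. In injured muscle, fibroblasts are known to lay down much of the fibrillar matrix.

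Total counts were 32197791 to 48170537 per library. Levels of a gene across libraries are given as counts per 1000000 (CPM) on library sizes scaled by TMM, a method that sets the bulk of genes level. The TMM factors ran from 0.69 in Hydrogel replicate 3 to 1.63 in Aspirin replicate 1, and the latter also stood apart in summed myofibre markers, at 22378 CPM against 91091 to 285099 CPM in the other 8 libraries. Acta1, the skeletal muscle actin that marks muscle fibres, was at 5457 CPM or more in every library. The keratinocyte list was at 161.6 CPM in Control replicate 1 and at 0.868 to 5.99 CPM elsewhere. Samples also carry code numbers without a stated meaning, 9 for controls, 8 for hydrogel, 7 for Aspirin replicates 1 and 2 and 10 for Aspirin replicate 3, so any handling difference they mark cannot be told apart from treatment. In bulk tissue, fewer cells of a type and less RNA per cell cannot be told apart.

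Promoter sequence is shown first for the genes on which the later sections turn. RefSeq's table for GRCm38.p6, the build also called mm10, held an entry for 35 of the 44 genes, and the 250 bases before each start were searched on both strands. The stretch before Col3a1, the most abundant collagen gene in the muscle, is chr1:45311288-45311537 on the plus strand. Col11a1 at chr3:114030430-114030539, Col27a1 at chr4:63215302-63215411 and Col15a1 at chr4:47207902-47208011, all plus strand, are shown because their values set groups apart. The gap between the head-to-head genes Col4a4 and Col4a3, chr1:82586850-82586920, is shown whole on the minus strand, because 71 bases separate these partner chains. Capitals mark a TATA box (TATAAA), a GC box (GGGCGG) or a CCAAT box (CCAAT, or ATTGG where it lies on the minus strand).
Col3a1 promoter: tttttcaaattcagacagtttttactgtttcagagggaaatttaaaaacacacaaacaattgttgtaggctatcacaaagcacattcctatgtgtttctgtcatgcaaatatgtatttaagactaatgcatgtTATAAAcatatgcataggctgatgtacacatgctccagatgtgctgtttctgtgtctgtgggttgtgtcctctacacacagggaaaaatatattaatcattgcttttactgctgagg
Col11a1 promoter: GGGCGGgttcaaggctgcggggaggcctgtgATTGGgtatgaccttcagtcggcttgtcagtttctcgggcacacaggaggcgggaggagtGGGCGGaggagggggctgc
Col27a1 promoter: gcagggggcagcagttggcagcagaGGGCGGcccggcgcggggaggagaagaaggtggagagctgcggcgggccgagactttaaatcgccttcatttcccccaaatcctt
Col15a1 promoter: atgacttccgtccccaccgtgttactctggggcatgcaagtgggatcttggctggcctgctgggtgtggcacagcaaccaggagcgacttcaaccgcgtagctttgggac
Col4a4 and Col4a3 gap: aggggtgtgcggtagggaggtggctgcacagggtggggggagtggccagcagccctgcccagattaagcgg
In Col3a1 the letters TATAAA start 117 bases before the RefSeq start. Col11a1 held GC boxes 110 and 19 bases before its start and a CCAAT box 79 bases before it, and Col27a1 held a GC box at 85. The stretches of Col15a1 and of the Col4a4 and Col4a3 gap held none of the motifs searched. Of the 35 collagen promoters, 5 (14.3%) held a TATA box, against 12.97% of all 27025 promoters in the table. A CCAAT box was in 12 (34.3%, against 34.5% of all), a GC box in 21 (60.0%, against 32.9% of all), and the AP-1 letters TGANTCA in 1, Col6a1 (2.86%, against 6.87% of all). These are matches of letters, and no factor's binding was measured.

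The collagen genes spanned a wide range of levels. Levels of different genes are compared only per length, as the authors' deposited FPKM (fragments scaled by gene length and library size). 13 genes averaged at least 10 FPKM over the 9 libraries, 10 averaged 1 to 10 and 21 averaged under 1. Col3a1, the chain of the thin fibrils that mix with type I, averaged 373 FPKM and was the highest collagen gene in 9 of 9 libraries. Col1a1 and Col1a2, the chains of type I collagen, averaged 223 and 119 FPKM. Next came Col6a1 at 75.7, Col4a1 at 54.3, Col4a2 at 39.4, Col6a2 at 38.3, Col5a1 at 28.1, Col5a2 at 26.6, Col5a3 at 22.9, Col6a3 at 20.7, Col15a1 at 19.9 and Col14a1 at 11.9. These 13 belong to type I, III and V fibrils, to type IV and type XV of the basement membrane and its border, to type VI filaments and to fibril-associated type XIV.

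**Figure D1:**
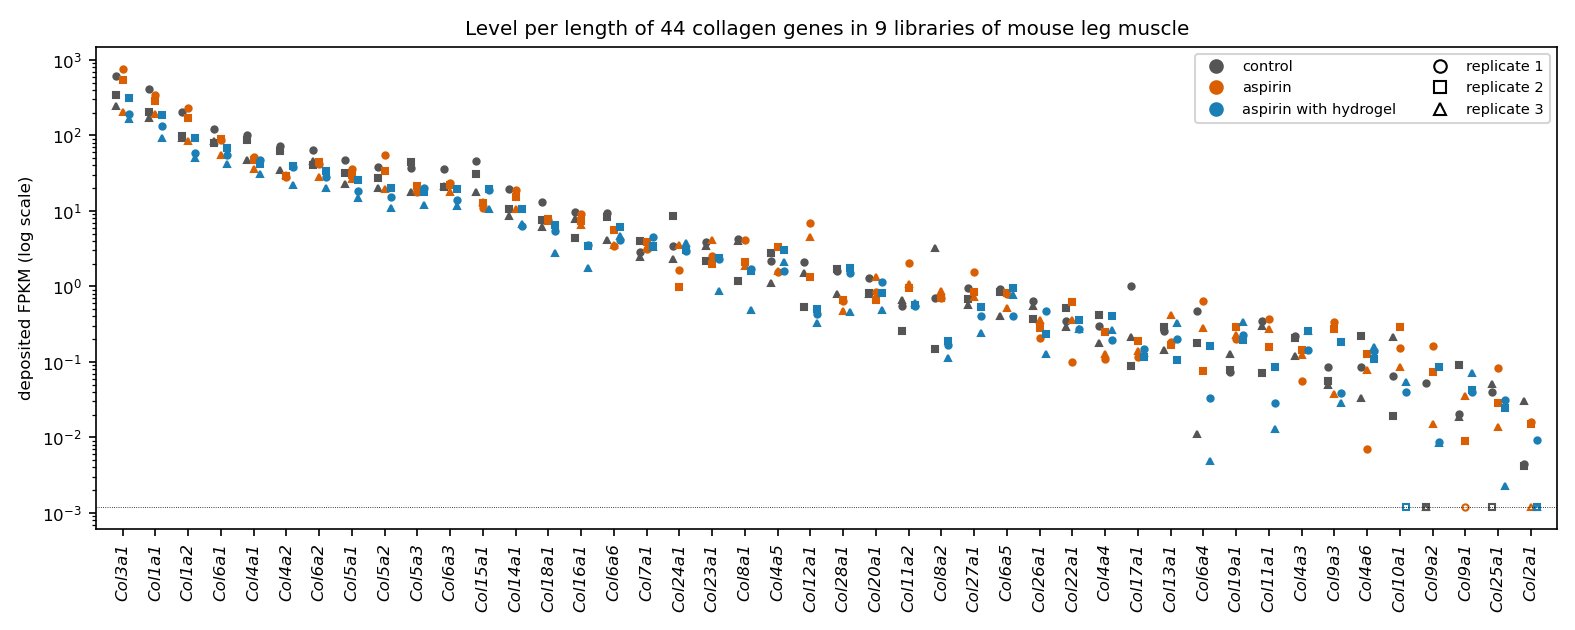
Deposited FPKM of the 44 collagen genes on a log axis, 1 symbol a library, ordered by mean and coloured by group. Open symbols on the dotted line mark libraries where a gene is listed at 0. Col3a1 stands highest and Col2a1 among the lowest.

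At the low end stood the chains of cartilage collagens. Col2a1, the main chain of cartilage fibrils, had at most 12 counts in a library, and Col2a1 and Col9a1 were the 2 genes that failed the filter on low counts, which left 42 for testing. Col9a2, Col9a3 and Col10a1, also known from cartilage, reached at most 0.343, 1.08 and 0.937 CPM. Of the cartilage markers, Acan was at most 1.92 CPM and Matn1 was at 0 in all but Control replicate 3 and Hydrogel replicate 2, and the cartilage and bone list summed to at most 13.7 CPM in any library. 5 collagen genes had no count in at least 1 of 6 libraries, which allows up to 0.0572 to 0.1001 CPM (3 counts, on each library's scaled size, counting error only).

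Counts per library show how much of the RNA was collagen. Collagen genes took 1.73%, 1.02% and 0.788% of all counts in the control libraries, 1.75%, 1.32% and 0.703% in the aspirin libraries and 0.610%, 0.846% and 0.471% in the hydrogel libraries. On the TMM scale their summed level was 14125, 10968 and 8859 CPM in controls, a mean of 11317 ± 2650 (SD, n = 3). With aspirin it was 10751, 12120 and 8054 CPM, a mean of 10308 ± 2069 (SD, n = 3). With aspirin and hydrogel it was 6414, 8773 and 6845 CPM, a mean of 7344 ± 1256 (SD, n = 3). All hydrogel libraries lay below all control libraries in this sum, while Hydrogel replicate 2 lay above Aspirin replicate 3. No test was made on the sum, and Col1a1, Col1a2 and Col3a1 held most of it.

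Shares within a library do not depend on how libraries are scaled. Fibrillar chains held 72.4%, 67.1% and 65.8% of the summed collagen FPKM in controls, 82.6%, 78.3% and 70.4% with aspirin and 65.0%, 71.1% and 68.3% with aspirin and hydrogel. The means were 68.4% ± 3.46, 77.1% ± 6.17 and 68.1% ± 3.02 (SD, n = 3 each), and aspirin overlapped both other groups through its replicate 3. Type IV chains held 9.38%, 13.6% and 9.63% in controls, 4.64%, 5.84% and 8.71% with aspirin and 12.98%, 9.26% and 10.8% with aspirin and hydrogel. Each aspirin library had a smaller type IV share than each of the other 6 libraries, with means of 6.40% ± 2.09 against 10.9% ± 2.36 and 11.005% ± 1.87 (SD, n = 3 each). Fibril-associated chains held 1.84% ± 0.339, 2.34% ± 0.607 and 1.83% ± 0.11, and the other class 18.8% ± 3.10, 14.1% ± 3.58 and 19.03% ± 1.16 (SD, n = 3 each, in the order control, aspirin, hydrogel). These shares are a description without a test.

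**Figure D2:**
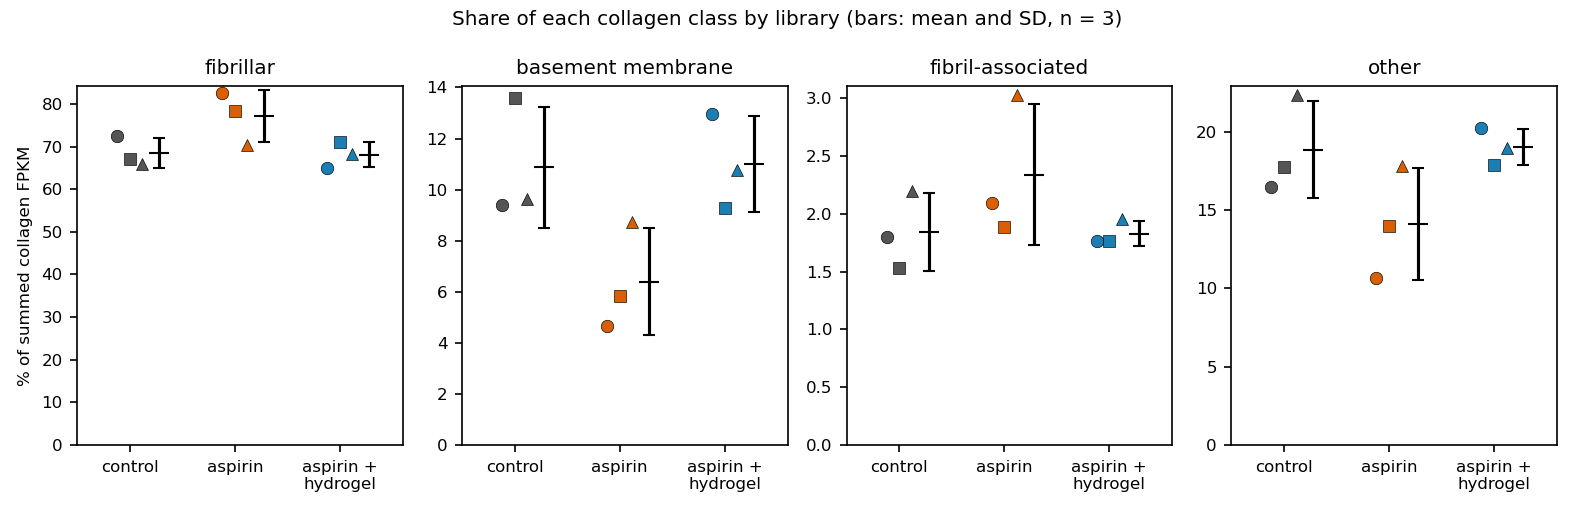
Share of the summed collagen FPKM held by each class, in percent, 1 symbol a library (circle, square and triangle for replicates 1, 2 and 3), with the mean and SD of 3 libraries beside them; the panels have different scales that start at 0. In the basement membrane panel the 3 aspirin libraries, at 4.64% to 8.71%, lie below all others.

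Aspirin against control asks how collagen RNA differs with the drug alone. Col4a1, Col4a2 and Col15a1 lay lower with aspirin without overlap, while the type I and III chains did not separate the groups. EdgeR's quasi-likelihood test with Benjamini-Hochberg adjustment called 0 collagen genes at 0.05 (0.0% of 18259 genes tested), with adjusted p of 0.753 to 0.999. At an unadjusted p under 0.05 there were 8 collagen genes (6.48% of all genes), 2 higher (3.09% of all genes) and 6 lower (3.39%). Limma-voom also called 0, and DESeq2 called 2 (0.553% of all genes), Col15a1 and Col4a1. Of the 42 tested, 14 had a log2 fold change above 0 (54.0% of all genes) and 28 below 0 (46.0% of all genes), with a median of -0.18 beside 0.05 over all genes. With library size alone in place of TMM, which moved the median of all genes by 0.23, the split was 19 above and 23 below, and the collagen median stood 0.34 below that of all genes. The 3 libraries of each group did not overlap in CPM for 2 collagen genes that lay higher with aspirin (5.54% of all genes) and 7 that lay lower (5.44% of all genes). Without Aspirin replicate 1 these counts were 3 and 7 (9.92% and 9.56% of all genes), and without Control replicate 1 they were 4 and 7 (11.1% and 10.3% of all genes). Both settings were chosen after seeing the data, and the shares over all genes were higher in them.

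The type IV chains build the network of the basement membrane, where the trimer of Col4a1 and Col4a2 is the common form. Col4a1 (chr8:11198423-11312826, minus strand) stood at 667, 762 and 433 CPM in controls and at 265, 356 and 331 CPM with aspirin. Col4a2 (chr8:11312805-11449287, plus strand) stood at 425, 482 and 281 CPM in controls and at 126, 195 and 246 CPM with aspirin. For both chains every aspirin library was below every control library. The log2 fold changes were -0.97 ± 0.32 for Col4a1 and -1.07 ± 0.35 for Col4a2 (SE). EdgeR's quasi-likelihood test gave both a Benjamini-Hochberg adjusted p of 0.753, while DESeq2 gave Col4a1 0.0454 and did not call Col4a2. Col4a3 and Col4a4, which with Col4a5 make the trimer of mature kidney and lung membranes, lay far lower in level. Col4a3 was at 1.96, 2.41 and 1.51 CPM in controls and 0.382, 1.45 and 1.57 CPM with aspirin. Col4a4 was at 2.81, 5.25 and 2.33 CPM in controls and 0.821, 2.72 and 1.71 CPM with aspirin. Both overlapped between the groups and were lowest in Aspirin replicate 1. Col4a5 was at 12.9, 21.6 and 9.19 CPM in controls and 7.12, 22.4 and 13.6 CPM with aspirin. Col4a6, its neighbour and partner in smooth muscle membranes, was at 0.61, 2.12 and 0.349 CPM in controls and 0.0382, 1.05 and 0.772 CPM with aspirin. The order of the groups in these last chains was not clear of the spread within a group. All 6 type IV log2 fold changes were below 0, though that of Col4a5 was -0.02 ± 0.46 (SE), and 0.12 on library size alone. Without Control replicate 2 those of Col4a5 and Col4a6 were 0.36 and 0.33. The median of the 6 was -0.88 and became -0.52 without Aspirin replicate 1.

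Col15a1 encodes type XV collagen, which links the basement membranes of muscle fibres and capillaries to nearby fibrils. It was at 256, 226 and 136 CPM in controls, a mean of 206 ± 62.3, and at 47.5, 80.7 and 104 CPM with aspirin, a mean of 77.5 ± 28.5 (SD, n = 3 each). The groups did not overlap, and the fitted level with aspirin was 2.66-fold lower (log2 fold change -1.41 ± 0.36, SE). The Benjamini-Hochberg adjusted p was 0.753 by edgeR's quasi-likelihood test and 0.0264 by DESeq2. Col18a1, the related chain from which endostatin is cut, was at 81.8, 63.1 and 52.2 CPM in controls and 36.5, 55.4 and 65.2 CPM with aspirin, which overlapped. Endothelial markers lay lower beside these genes. All 8 of the list had a log2 fold change below 0, with a median of -0.89, and their summed level was 350 to 633 CPM in controls against 210 to 276 CPM with aspirin. Of 8 smooth muscle and pericyte markers 6 lay lower, with 512 to 662 CPM in controls and 344 to 447 CPM with aspirin. Pecam1 was at 61.1 to 85.1 CPM with aspirin and at 94.9 to 157 CPM in controls. Adipocyte markers lay lower in 6 of 6, at a median of -1.37, with 1830 to 3025 CPM summed in controls and 571 to 1636 CPM with aspirin. The part of these cells in the collagen values was not tested.

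**Figure D3:**
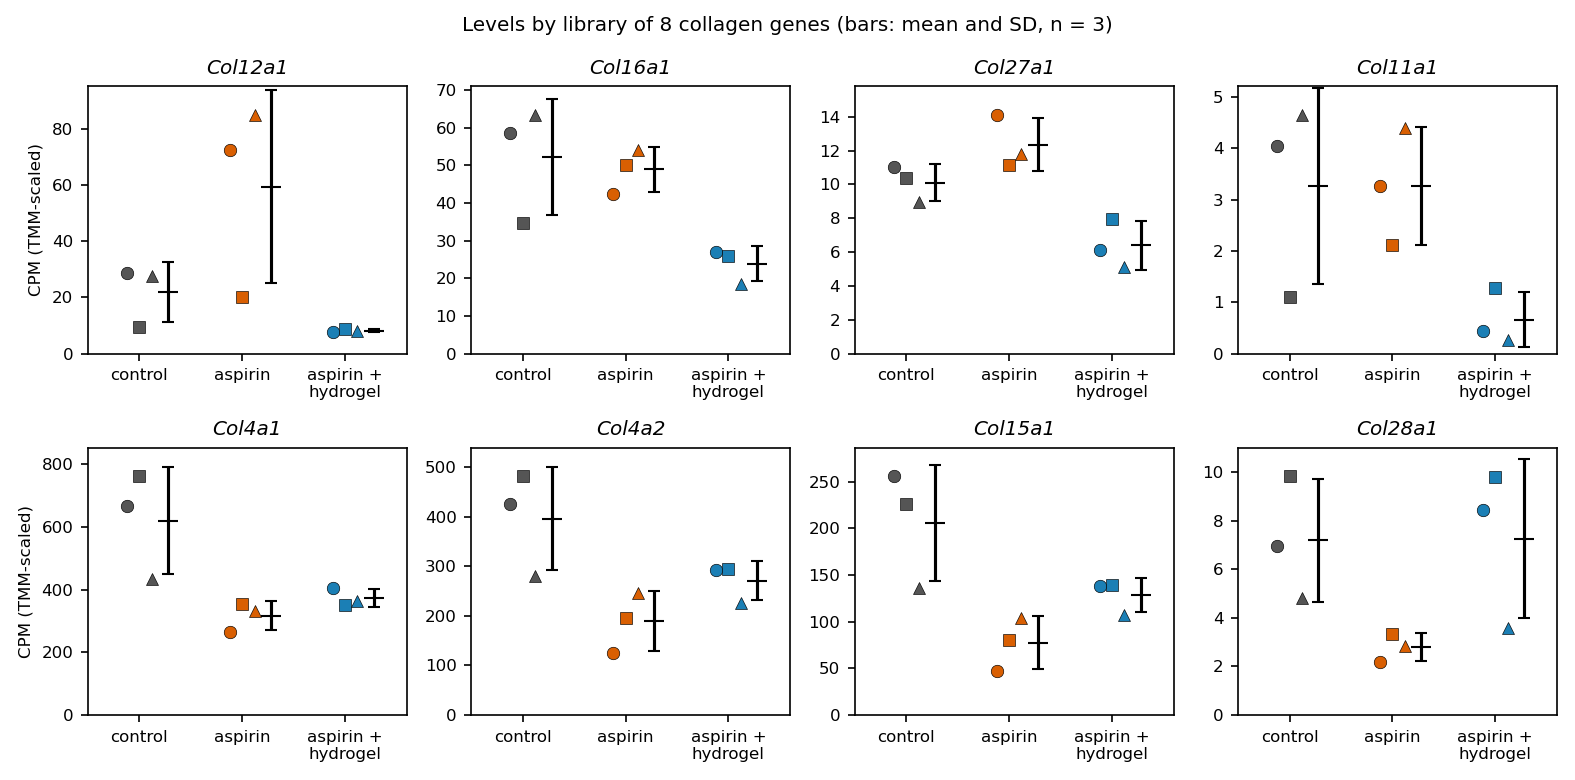
CPM of selected collagen genes by group, 1 symbol a library, with the mean and SD of 3 libraries; each panel has its own scale starting at 0. Col4a1 and Col15a1 show all aspirin libraries below all controls, and Col12a1 shows all hydrogel libraries, at 7.59 to 8.61 CPM, below the other 6.

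Type VI chains lay lower with aspirin in all 3 of the abundant genes. Col6a1 was at 476, 411 and 451 CPM in controls and 258, 392 and 303 CPM with aspirin, a log2 fold change of -0.49 ± 0.28 (SE). Col6a2 was at 481, 401 and 463 CPM in controls and 237, 371 and 289 CPM with aspirin. Col6a3 was at 380, 295 and 312 CPM in controls and 195, 265 and 267 CPM with aspirin. None of the 3 overlapped between the groups, and none had an unadjusted p under 0.05. The further type VI chains were Col6a6 at 21.7 to 89.9 CPM, Col6a5 at 4.4 to 11.4 CPM and Col6a4 at 0.0667 to 3.78 CPM over all 9 libraries. Col6a6 had a log2 fold change of -0.91 ± 0.37 (SE) and overlapped between the groups. Over the 6 type VI genes 5 were lower, with a median of -0.47.

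Fibrillar chains went both ways with aspirin. Col1a1 was at 2374, 1578 and 1359 CPM in controls and 1544, 1873 and 1553 CPM with aspirin. Col1a2 was at 2244, 1425 and 1419 CPM in controls and 1933, 2100 and 1285 CPM with aspirin. Col3a1 was at 5355, 3896 and 2928 CPM in controls and 5105, 5315 and 2454 CPM with aspirin. The groups overlapped widely in these 3 genes. Their log2 fold changes were -0.10, 0.06 and 0.08, each with an SE of 0.38 to 0.48, and each changed sign when some single library was left out. The 95% interval for Col3a1 ran from -1.01 to 1.17, which spans 2-fold differences in both directions. Type V collagen starts fibrils and limits their width. Its chain Col5a1 was at 364, 320 and 237 CPM in controls and 209, 260 and 285 CPM with aspirin. Its partner Col5a2 was at 330, 303 and 233 CPM in controls and 364, 325 and 230 CPM with aspirin. The third type V chain, Col5a3, was at 222, 350 and 149 CPM in controls and 82.2, 145 and 164 CPM with aspirin, with Aspirin replicate 3 above Control replicate 3. All 3 overlapped, and the log2 fold change of Col5a3, -0.88 ± 0.38 (SE), was -0.52 without Control replicate 2. The fibrillar median was 0.03. It changed sign when Control replicate 2 or 3, or Aspirin replicate 1 or 2, was left out. Of 10 fibroblast markers 7 were above 0, at a median of 0.21. Their summed level was 1004 to 2944 CPM with aspirin and 1989 to 2793 CPM in controls. Myofibre markers were below 0 in 8 of 9, at a median of -0.14. The part of either in the collagen values was not tested.

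Col11a2, a chain of the minor fibrillar type XI collagen, lay higher with aspirin. It was at 3.46, 2.12 and 5.67 CPM in controls and 9.62, 6.68 and 9.35 CPM with aspirin, without overlap. The log2 fold change was 1.19 ± 0.39 (SE). The other type XI chain, Col11a1, was at 4.05, 1.09 and 4.65 CPM in controls and 3.26, 2.11 and 4.4 CPM with aspirin, which overlapped. Col27a1, a fibrillar chain best known from cartilage, was at 11, 10.4 and 8.93 CPM in controls and 14.1, 11.2 and 11.8 CPM with aspirin. It was the other gene whose aspirin libraries all lay above the controls, by a log2 fold change of 0.29 ± 0.24 (SE). Col24a1, the remaining fibrillar chain tested, ranged from 7.57 to 75.8 CPM over the 9 libraries with its peak in Control replicate 2.

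Fibril-associated and other chains at low level held the widest values. Col12a1, a chain on fibrils of tendon, fascia and muscle connective tissue, was at 28.6, 9.56 and 27.8 CPM in controls and 72.6, 20.3 and 85.1 CPM with aspirin. Aspirin replicates 1 and 3 were above every control and replicate 2 was not, and the log2 fold change was 1.43 ± 0.54 (SE). Col16a1, another fibril-associated chain, was at 58.6, 34.6 and 63.4 CPM in controls and 42.3, 50.2 and 54.1 CPM with aspirin, which overlapped. Col19a1, known from developing muscle and nerve, was at 0.48, 0.625 and 1.08 CPM in controls and 0.973, 2.04 and 1.94 CPM with aspirin, with 1 aspirin library inside the control range. Col14a1, which binds fibrils of mature muscle connective tissue, ranged over 51 to 124 CPM in all 9 libraries. Col28a1, a chain known from peripheral nerve, was at 6.95, 9.83 and 4.8 CPM in controls and 2.19, 3.35 and 2.86 CPM with aspirin, without overlap. Its log2 fold change was -1.36 ± 0.43 (SE). Beside it, Schwann cell markers had fold changes above 0 for 4 of 7 and summed to 77.4 to 131 CPM in controls and 85.4 to 155 CPM with aspirin, and their part was not tested. Macrophage markers lay higher beside Col12a1 and Col11a2, in 7 of 7 tested, at 515 to 1423 CPM summed in controls and 1112 to 2482 CPM with aspirin. Neutrophil markers were above 0 in 5 of 6, at 16.5 to 155 CPM summed in controls and 31.5 to 350 CPM with aspirin. The part of macrophages or neutrophils was not tested.

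**Figure D4:**
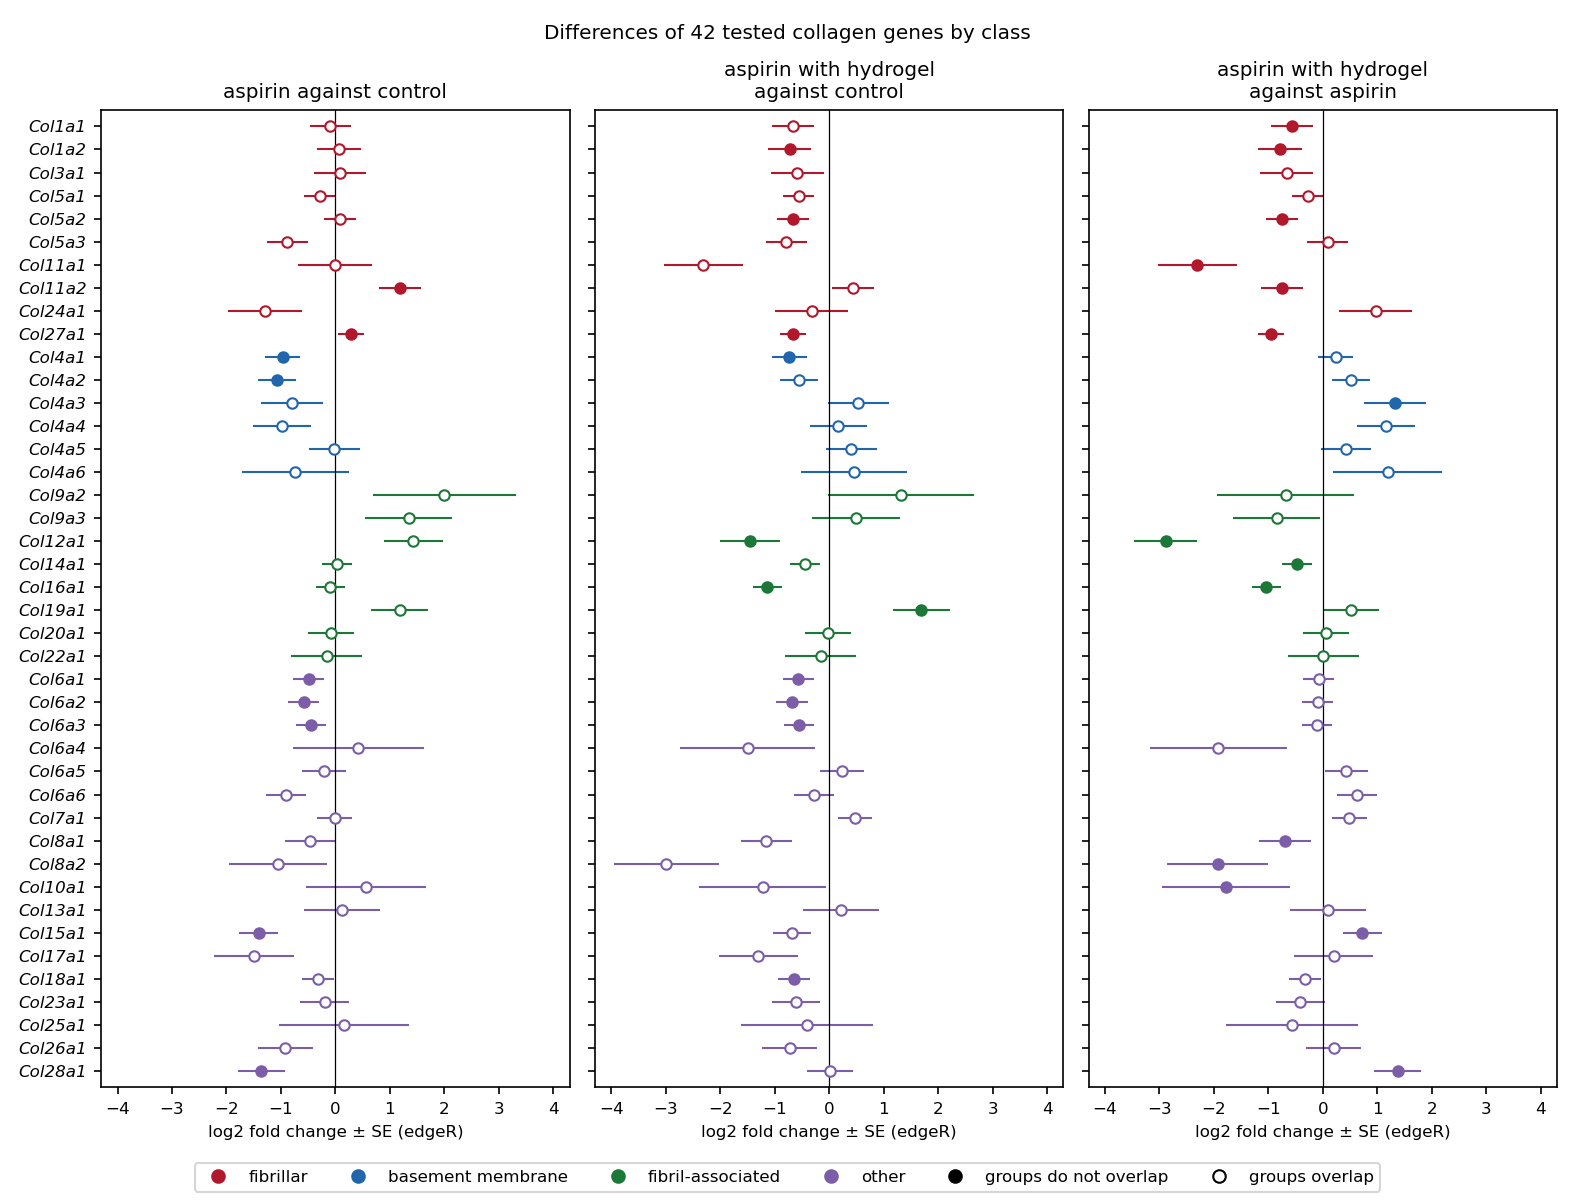
Log2 fold change with SE of the 42 tested collagen genes in each comparison, coloured by class, filled where the 3 libraries of each group do not overlap in CPM. In the first panel all 6 type IV chains lie below 0, Col4a5 only just at -0.02. In the second all chains averaging at least 10 FPKM lie below 0, and in the third Col12a1 lies lowest at -2.88.

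Aspirin with hydrogel against control compares the combined treatment with injury alone. The abundant collagens lay lower with the combination. Again edgeR's quasi-likelihood test with Benjamini-Hochberg adjustment called 0 collagen genes (0.0% of 18259 genes), with adjusted p of 0.987 to 0.998, and limma-voom and DESeq2 called 0 as well (0.0986% of all genes in DESeq2). At an unadjusted p under 0.05 there were 9 (3.92% of all genes), 1 higher (1.74%) and 8 lower (2.18%). That count was 5 without Control replicate 1, 5 without Hydrogel replicate 1, 3 without Hydrogel replicate 3 and 16 when Aspirin replicate 1, which enters only the estimate of the spread, was left out. Of 42 log2 fold changes, 12 were above 0 (47.1% of all genes) and 30 below 0 (52.9%), and the median was -0.56 beside -0.03 over all genes. On library size alone, 34 of 42 were below 0, the median of all genes moved by -0.23 and the collagen median stood 0.54 below it. All 13 genes averaging at least 10 FPKM were below 0, with a median of -0.66. The groups did not overlap for 1 gene higher (6.85% of all genes) and 10 lower (6.3% of all genes), which was 1 and 10 without Hydrogel replicate 3 (9.51% and 8.38% of all genes) and 2 and 10 without Control replicate 1 (9.97% and 9.6% of all genes). This comparison uses the same control libraries as the one above.

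Type I and III chains had their lowest group mean in the hydrogel libraries. Col1a1 stood there at 1017, 1377 and 956 CPM, where the highest was above Control replicate 3. Col1a2 stood at 836, 1277 and 968 CPM, all below the lowest control, 1419 CPM. Col3a1 stood at 2141, 3410 and 2577 CPM, where the highest was above Control replicate 3. Their log2 fold changes against control were -0.66 ± 0.38, -0.72 ± 0.40 and -0.58 ± 0.48 (SE), and -0.39, -0.47 and -0.33 without Control replicate 1, the library highest in all 3. The type V chains were at 180, 244 and 201 CPM for Col5a1, 166, 215 and 163 CPM for Col5a2 and 155, 135 and 128 CPM for Col5a3 in the hydrogel libraries. Only Col5a2 was clear of its controls among them, at a log2 fold change of -0.67 ± 0.30 (SE). Beside them, 8 of 10 fibroblast markers were below 0 at a median of -0.11, with a summed level of 2040 to 2212 CPM in the hydrogel libraries and 1989 to 2793 CPM in controls. Myofibre markers were above 0 in 7 of 9 at a median of 0.55, with a summed level of 151692 to 285099 CPM in the hydrogel libraries and 91091 to 199906 CPM in controls. The part of either in the collagen values was not tested.

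Single fibrillar and fibril-associated chains of lower level stood further from the controls, while the fibril-associated class had a median of -0.09, against -0.66 for the fibrillar class. Among those with smaller differences were Col14a1 at -0.45, Col24a1 at -0.32, Col22a1 at -0.16, Col20a1 at -0.03 and Col11a2 at 0.44 on the log2 scale. Col16a1 was at 27, 26 and 18.5 CPM in the hydrogel libraries, a mean of 23.8 ± 4.66 against 52.2 ± 15.4 in controls (SD, n = 3 each). Every hydrogel library was below every control, and the log2 fold change was -1.13 ± 0.27 (SE). Col11a1 was at 0.435, 1.27 and 0.267 CPM, a log2 fold change of -2.31 ± 0.72 (SE), with Hydrogel replicate 2 just above Control replicate 2. Col12a1 was at 7.59, 8.61 and 7.91 CPM, narrow beside 9.56 to 28.6 CPM in controls and below all of them. Its log2 fold change was -1.45 ± 0.55 (SE). Col27a1 was at 6.12, 7.98 and 5.11 CPM, all below the controls, at -0.66 ± 0.24 (SE). Col19a1 was the only gene clear of the controls on the higher side, at 1.81, 1.54 and 3.7 CPM in the hydrogel libraries and a log2 fold change of 1.69 ± 0.53 (SE).

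Network chains of type VIII, known from vessel walls and the cornea, were low in the hydrogel libraries. Col8a2 was at 2.85, 0.804 and 17.6 CPM in controls, at 2.21, 3.19 and 4.83 CPM with aspirin and at 0.871, 0.997 and 0.801 CPM with the combination. Control replicate 3 carried most of its control mean: the log2 fold change of -2.99 ± 0.96 (SE) became -1.05 without it. Col8a1 ranged from 6.11 to 15.3 CPM in the hydrogel libraries and from 11 to 38.2 CPM in controls, which overlapped. Its log2 fold change against control was -1.15 ± 0.47 (SE). With aspirin Col8a1 was at 22.3, 17 and 18.2 CPM. For both type VIII chains every hydrogel library was below every aspirin library.

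The abundant chains of both type VI and type IV had log2 fold changes below 0 in this comparison. Col6a1, Col6a2 and Col6a3 stood at 279, 340 and 285 CPM, at 266, 312 and 260 CPM and at 192, 265 and 219 CPM in the hydrogel libraries. All 3 were below their controls without overlap, at log2 fold changes of -0.57, -0.68 and -0.55, and close to their levels with aspirin. Col4a1 stood at 407, 352 and 363 CPM, below all controls, with a log2 fold change of -0.73 ± 0.32 (SE). Col4a2 stood at 293, 295 and 227 CPM, at a log2 fold change of -0.55 ± 0.35 (SE), and overlapped the controls through Control replicate 3. The low type IV chains went the other way. Col4a3 stood at 1.67, 2.87 and 4.005 CPM, Col4a4 at 2.39, 4.87 and 4.44 CPM, Col4a5 at 12.4, 23.2 and 22.3 CPM and Col4a6 at 1.28, 0.997 and 1.97 CPM. They overlapped the controls, with log2 fold changes of 0.54, 0.17, 0.41 and 0.46 and intervals that all spanned 0, and on library size alone that of Col4a4 was below 0. Col15a1 stood at 138, 139 and 107 CPM, between the aspirin and control means, and Col18a1 at 43.9, 50.9 and 30.8 CPM, below all controls. Beside these, endothelial markers were at 280 to 448 CPM summed, with 7 of 8 below 0 against control at a median of -0.36. Other lists lay lower too: smooth muscle and pericyte markers in 8 of 8 (median -0.36) and adipocyte markers in 6 of 6 (-0.76). So did neutrophil markers in 6 of 6 (-2.07) and Schwann cell markers in 7 of 7 (-0.39). Macrophage markers were above 0 in 4 of 7 (0.13) and satellite cell markers in 3 of 6 (0.02). The part of any of these cells was not tested.

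Aspirin with hydrogel against aspirin asks what differs when the hydrogel is added. Among the chains that lay lower with the hydrogel without overlap were Col12a1, Col16a1, Col27a1, both type VIII chains and both type XI chains. Col4a3, Col15a1 and Col28a1 lay higher without overlap. By class, 8 of 10 fibrillar and 5 of 8 fibril-associated chains had a log2 fold change below 0, and the 6 type IV chains were above 0. For collagen genes edgeR's quasi-likelihood test made 0 calls after Benjamini-Hochberg adjustment (0.0% of 18259 genes), with adjusted p of 0.453 to 0.998. At an unadjusted p under 0.05 there were 7 (10.9% of all genes), 2 higher (3.32%) and 5 lower (7.61%), and 11 without Aspirin replicate 3. DESeq2 called 2 (0.86% of all genes), Col12a1 and Col27a1, and limma-voom called 0. Of 42 genes 19 had a log2 fold change above 0 (46.7% of all genes) and 23 below 0 (53.3%), with a median of -0.10 beside -0.05 over all genes. On library size alone 31 were below 0, and the collagen median moved with that of all genes, both to -0.51. The groups did not overlap for 3 genes higher (7.46% of all genes) and 12 lower (8.75% of all genes), which was 3 and 16 without Aspirin replicate 1 (10.8% and 12.3% of all genes) and 4 and 12 without Hydrogel replicate 3 (10.9% and 10.8% of all genes). The aspirin libraries here are those of the comparison of aspirin with control.

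Col12a1 showed the smallest p of any collagen gene. Its aspirin libraries, at 72.6, 20.3 and 85.1 CPM (mean 59.3 ± 34.4, SD, n = 3), all lay above its hydrogel libraries (mean 8.04 ± 0.522, SD, n = 3). The fitted level was 7.38-fold lower with the hydrogel, a log2 fold change of -2.88 ± 0.57 (SE). Its Benjamini-Hochberg adjusted p was 0.453 by edgeR's quasi-likelihood test and 6.76e-04 by DESeq2. Leaving out single libraries gave log2 fold changes of -3.29 to -2.57. Tenocyte markers, which mark tendon cells, were lower in 7 of 7 at a median of -0.97, with a summed level of 133 to 192 CPM with aspirin and 58.1 to 90.6 CPM with the hydrogel, and 56.9 to 238 CPM in controls. Tnmd, the defining tendon marker, was at 2.88, 5.74 and 2.8 CPM with aspirin and 2.1, 2.18 and 1.54 CPM with the hydrogel. Macrophage markers were also lower in 7 of 7 tested, at a summed 492 to 1120 CPM with the hydrogel. Neutrophil markers were lower in 6 of 6 at a median of -3.45. They summed to 350, 31.5 and 155 CPM with aspirin and 25.3, 17.9 and 10.6 CPM with the hydrogel. By library, tenocyte markers summed to 156, 192 and 133 CPM with aspirin. The part of tendon cells, macrophages or neutrophils in the Col12a1 values was not tested.

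Col27a1 and Col16a1 were more even within groups. Col27a1 had means of 12.4 ± 1.56 CPM with aspirin and 6.40 ± 1.46 CPM with the hydrogel (SD, n = 3 each), without overlap and with a log2 fold change of -0.95 ± 0.24 (SE). Its DESeq2 adjusted p was 0.0297, against 0.453 by edgeR's quasi-likelihood test. Col16a1 had means of 48.9 ± 5.98 CPM and 23.8 ± 4.66 CPM (SD, n = 3 each), also without overlap, at -1.04 ± 0.27 (SE). Col11a1 averaged 3.26 ± 1.15 CPM with aspirin and 0.657 ± 0.537 CPM with the hydrogel (SD, n = 3 each), a fitted level 4.94-fold lower. In all 3 genes the hydrogel group had the lowest mean of the 3 groups. Col11a1 and Col27a1, whose stretches before the start hold GC boxes in the sequences above, are fibrillar chains at under 1 FPKM on average, far below type I and III.

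Type I, III and V chains were lower with the hydrogel in 5 of 6 genes. The log2 fold changes were -0.57 for Col1a1, -0.79 for Col1a2, -0.66 for Col3a1, -0.27 for Col5a1 and -0.75 for Col5a2, with 0.09 for Col5a3. Col1a1, Col1a2 and Col5a2 did not overlap between the groups, while Col3a1 did, through Aspirin replicate 3. On library size alone the first 3 values were -1.002, -1.28 and -1.20, and Col5a3 stood at -0.26. Col11a2, at 4.35, 4.44 and 6.51 CPM with the hydrogel, was also below all aspirin libraries, by a log2 fold change of -0.74 ± 0.38 (SE). The fibrillar median was -0.70. Beside these chains, 8 of 10 fibroblast markers lay lower with the hydrogel than with aspirin, at a median of -0.56, with a summed level of 1004 to 2944 CPM with aspirin and 2040 to 2212 CPM with the hydrogel. Myofibre markers lay higher in 9 of 9, at a median of 0.69. The part of either in the collagen values was not tested.

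All 6 type IV chains had a log2 fold change above 0, with a median of 0.84 that was 0.47 without Aspirin replicate 1 and 0.49 on library size alone. Col4a3 was the 1 chain whose groups did not overlap, at 1.33 ± 0.57 (SE). Col4a1 and Col4a2 had 0.24 ± 0.32 and 0.52 ± 0.35 (SE), and on library size alone Col4a1 stood at -0.18. Col15a1 was higher without overlap, at 0.73 ± 0.35 (SE), or 0.47 without Aspirin replicate 1. Endothelial markers were higher in 7 of 8 beside them, at a median of 0.36, and their part was not tested. Col28a1, the third gene without overlap, stood at 8.42, 9.79 and 3.57 CPM with the hydrogel and 2.19 to 3.35 CPM with aspirin, a log2 fold change of 1.37 ± 0.43 (SE). The abundant type VI chains had log2 fold changes of -0.08, -0.10 and -0.11 for Col6a1, Col6a2 and Col6a3 and 95% intervals that lay within -0.74 to 0.56. On library size alone these were -0.50, -0.51 and -0.51, where the median of all genes was -0.51. The low type VI chains Col6a4, Col6a5 and Col6a6 stood at -1.92, 0.44 and 0.62 and overlapped.

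A test of any difference among the 3 groups in edgeR's quasi-likelihood fit called 0 collagen genes and 0.0% of all genes, with 6.97% of all genes at an unadjusted p under 0.05. DESeq2's test of the same question called 2 collagen genes of 42 (0.838% of all genes), Col12a1 at an adjusted p of 0.00285 and Col16a1 at 0.0410.

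Chains that build 1 trimer were compared as ratios of their FPKM within a library, which no scaling of libraries can alter. The height of such a ratio rests on the exonic length used for each gene, while its differences between libraries do not. Annotated exonic lengths of Col6a1, Col6a2 and Col6a3 were 4380, 8326 and 11963 bases. Their counts summed over the 9 libraries were 131826, 127405 and 98639. Per length, Col6a1 stood at 1.85 to 2.09 times Col6a2 and at 3.12 to 4.05 times Col6a3 in all 9 libraries. Within that narrow range Col6a1 over Col6a2 was 1.88, 1.95 and 1.85 in controls, 2.07, 2.01 and 2.002 with aspirin and 1.99, 2.07 and 2.09 with the hydrogel. Each of the 6 treated libraries was above each control in this ratio, and aspirin and hydrogel overlapped. Col1a1 stood at 1.51 to 2.30 times Col1a2, with a median of 2.001. Their annotated exonic lengths were 6563 and 12426 bases, and their counts summed over the 9 libraries were 577322 and 575745. A median near 2 therefore rests on the lengths and is no measure of the chains made. The lowest value was in Aspirin replicate 1 and the highest in Hydrogel replicate 1. Col4a1 stood at 1.39, 1.40 and 1.37 times Col4a2 in controls, at 1.87, 1.62 and 1.19 times with aspirin and at 1.23, 1.06 and 1.42 times with the hydrogel, which overlapped. These genes lie head to head and overlap by 22 bases, and without stated strand use the reads of those bases cannot be told apart. Col4a3 stood at 0.486 to 0.963 times Col4a4 over the 71-base gap printed above. Col5a1 over Col5a2 ran from 0.645 in Aspirin replicate 1 to 1.39 in Aspirin replicate 3. Col3a1, which ends 24614 bases from the end of Col5a2, stood at 10.4 to 15.997 times Col5a2.

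Type XI chains departed from a fixed ratio. Col11a1 over Col11a2 was 0.633, 0.278 and 0.442 in controls, 0.182, 0.167 and 0.252 with aspirin and 0.0530, 0.153 and 0.0219 with the hydrogel. Every control was above every aspirin library, and every aspirin library was above every hydrogel library. The hydrogel ratios rest on few reads of Col11a1, whose low CPM in those libraries is given above. The means were 0.451 ± 0.178, 0.2005 ± 0.0452 and 0.0759 ± 0.0684 (SD, n = 3 each), and no test was made on ratios. Col8a1 over Col8a2 ran from 1.24 in Control replicate 3 to 10.2 in Hydrogel replicate 1. Col4a5 over Col4a6 ran from 11.6 to 221, the latter in Aspirin replicate 1, where Col4a6 was at 0.0382 CPM.

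**Figure D5:**
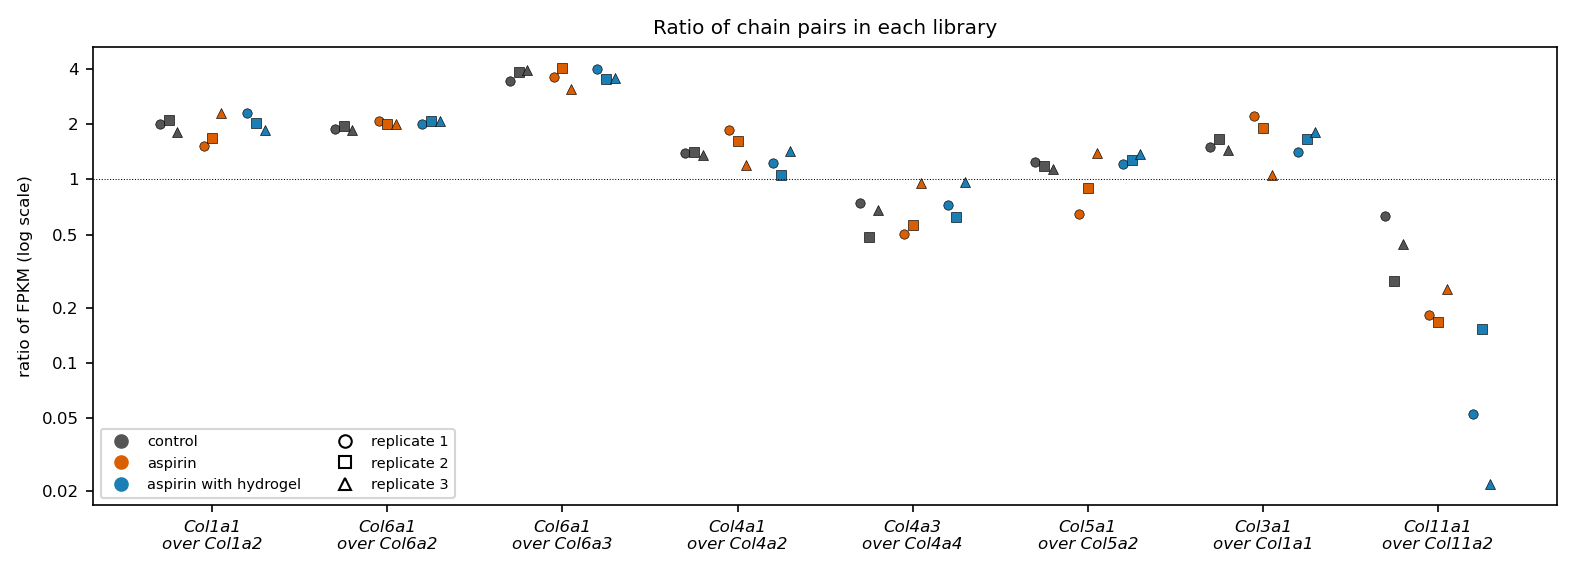
Ratio of FPKM of partner chains within each library on a log axis, 1 symbol a library, coloured by group. Col6a1 over Col6a2 lies between 1.85 and 2.09, with the 3 controls lowest, and Col11a1 over Col11a2 separates all 3 groups, from 0.633 in Control replicate 1 to 0.0219 in Hydrogel replicate 3.

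The remaining chains were low or did not separate the groups beyond those already named. Col17a1, the transmembrane collagen of skin hemidesmosomes, was at 5.45 CPM in Control replicate 1 and 0.496 to 1.6 CPM elsewhere. Krt14, a basal keratinocyte keratin, was at 11.4 CPM in that library and at most 0.378 CPM elsewhere. Col7a1, which anchors skin to its basement membrane, did not follow it, at 26.1 CPM in that library within a range of 22.1 to 53.1 CPM. Of the transmembrane chains, Col13a1, known from the neuromuscular junction, ranged over 0.572 to 2.46 CPM, Col23a1 over 7.94 to 29.5 CPM and Col25a1, needed for motor innervation of muscle, from 0 to 0.814 CPM. Col22a1, a chain of the myotendinous junction, ranged over 0.649 to 5.74 CPM, with its lowest value in Aspirin replicate 1. Col20a1 ranged over 3.01 to 8.46 CPM and Col26a1 over 1.2 to 5.73 CPM.

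Collagen chains need enzymes, chaperones, export factors, proteases and receptors, and 64 such genes were listed, of which 60 were tested. In edgeR's quasi-likelihood test with Benjamini-Hochberg adjustment 0 passed in each comparison. Against control, 35 of 60 were higher with aspirin (54.0% of all genes), with a median of 0.07. With the combination 18 of 60 were higher than control (47.1% of all genes), with a median of -0.19. For the combination against aspirin 23 of 60 were higher (46.7% of all genes), with a median of -0.18. At an unadjusted p under 0.05 there were 2 higher and 2 lower with aspirin against control (3.09% and 3.39% of all genes). For the combination there were 1 higher and 8 lower against control (1.74% and 2.18% of all genes). Against aspirin there were 1 higher and 11 lower (3.32% and 7.61% of all genes). The totals, 4, 9 and 12, depended on single libraries: the first was 2 without Control replicate 1 or 2 and 8 without Aspirin replicate 3. The second was 5 without Control replicate 1, 3 without Hydrogel replicate 1 or 3 and 14 without Aspirin replicate 1, and the third was 20 without Aspirin replicate 3. DESeq2 called 1, 0 and 3 of them, where it called 0.553%, 0.0986% and 0.86% of all genes.

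Lox, the oxidase that starts the crosslinking of collagen and elastin, had the smallest p of the assembly genes in both comparisons with the aspirin libraries. It was at 42.6, 31.8 and 40 CPM in controls, 155, 82 and 73.6 CPM with aspirin and 22.5, 31.6 and 20.8 CPM with the hydrogel. No group overlapped another: aspirin was highest and hydrogel lowest. The log2 fold changes were 1.44 ± 0.32 for aspirin against control and -2.05 ± 0.33 for hydrogel against aspirin (SE), with DESeq2 adjusted p of 0.0183 and 3.19e-05, and edgeR quasi-likelihood adjusted p of 0.747 and 0.453. Loxl3, a related oxidase, was at 14.2 to 20.2 CPM with aspirin and 6.21 to 11.1 CPM with the hydrogel. Of the 5 crosslinking genes, Lox was the 1 whose aspirin libraries did not overlap the controls. Loxl1, Loxl2, Loxl3 and Loxl4 had log2 fold changes of 0.10 ± 0.19, 0.12 ± 0.28, 0.23 ± 0.30 and 0.38 ± 0.53 (SE) there and overlapped. Macrophage, neutrophil and tenocyte markers were also lower in the hydrogel group than in the aspirin group, as given above, and their part in the Lox values was not tested.

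Of 18 folding genes, 0 were called by edgeR's quasi-likelihood test after Benjamini-Hochberg adjustment in each comparison. At its unadjusted p under 0.05 there were 1 higher and 0 lower with aspirin against control (3.09% and 3.39% of all genes). With the hydrogel there were 1 higher and 3 lower against control (1.74% and 2.18% of all genes). Against aspirin there were 0 higher and 4 lower (3.32% and 7.61% of all genes). P4ha3, a subunit of prolyl 4-hydroxylase, which makes the helix stable, was at 2.05, 0.38 and 3.02 CPM in controls, 6.72, 1.9 and 6.29 CPM with aspirin and 0.194, 0.574 and 0.334 CPM with the hydrogel. Its pattern by library was high in Aspirin replicates 1 and 3 and low in all hydrogel libraries, like that of Col12a1. The hydrogel against aspirin log2 fold change was -3.75 ± 0.85 (SE). Its adjusted p was 0.00219 by DESeq2 and 0.453 by edgeR's quasi-likelihood test. Fkbp10, a chaperone of procollagen in the endoplasmic reticulum, was at 37, 25.1 and 35.4 CPM in controls, 34.3, 35.1 and 36.1 CPM with aspirin and 21.3, 18.6 and 14.3 CPM with the hydrogel. With the hydrogel Fkbp10 lay below control and aspirin without overlap, at -0.85 ± 0.22 and -0.96 ± 0.22 (SE). In the second its adjusted p was 0.0186 by DESeq2 and 0.453 by edgeR's quasi-likelihood test. Colgalt1, which adds galactose to hydroxylysine, was higher than control in both treated groups without overlap, at 0.74 ± 0.29 and 0.91 ± 0.29 (SE). P3h2, a prolyl 3-hydroxylase active on type IV collagen, was lower with aspirin than control, at 1.26 to 2.63 CPM against 2.65 to 4.73 CPM.

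Export, cleavage, receptor and partner genes followed their own orders. Sec24d, a coat protein of the vesicles that carry procollagen, was at 12.4 to 16.6 CPM with the hydrogel and 17.9 to 33.5 CPM in the other 6 libraries, while its partners Sec23a and Sec13 were at 39 to 153 CPM and 37.9 to 58.8 CPM over all libraries. Bmp1, which cuts off the C-propeptide, was at 91.6 to 100 CPM with aspirin and 52.9 to 80.6 CPM in the other 6. Pcolce, its enhancer, was at 72.8 to 89.1 CPM with the hydrogel and 92.4 to 130 CPM elsewhere, and Adamts14, an N-propeptide protease, at 4.84 to 13.2 CPM throughout. Itga1, a collagen receptor that binds type IV, was at 36.4, 59.3 and 26.6 CPM in controls, 20.3, 17.8 and 24.4 CPM with aspirin and 36.8, 37.7 and 31.1 CPM with the hydrogel. Its aspirin libraries were the lowest 3 of 9, as were those of Col15a1. Among the other receptors, Itga2 was at 1.27 to 3.93 CPM, Ddr1 at 6.28 to 30 CPM, and the collagen uptake receptor Mrc2 at 24 to 34 CPM with the hydrogel and 33.9 to 53.4 CPM elsewhere. Bgn, a proteoglycan of fibrils, was at 408, 196 and 560 CPM in controls, 455, 341 and 433 CPM with aspirin and 164, 197 and 109 CPM with the hydrogel, a log2 fold change of -1.39 ± 0.42 (SE) against aspirin. Lum and Fmod, which also sit on fibrils, were at 80.3 to 136 CPM and 5.18 to 10.1 CPM with the hydrogel and at 115 to 421 CPM and 6.05 to 41 CPM elsewhere. Hspg2 and Lamb1, a proteoglycan and a laminin chain of basement membranes, were at 83.9 to 262 CPM and 75.1 to 94.3 CPM with aspirin and at 246 to 389 CPM and 93.1 to 148 CPM in controls, both overlapping.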

How the data were processed

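RNA from leg muscle was made into libraries from 1 µg of total RNA, per the labels' protocols. The authors deposited counts per gene, which are whole numbers not normalised, and FPKM per gene. The submitters' processing notes name the build mm10, and aligner, counting tool, annotation and strand use were not given in the sources used here. Coordinates are GENCODE's for that build, 1-based.

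Counts of all 9 libraries entered 1 edgeR fit (4.0.16, R 4.3.3, robust quasi-likelihood, TMM, filterByExpr with a minimum count of 10 and total of 15, group only), adjusted by Benjamini-Hochberg over 18259 genes at 0.05. SE and 95% intervals came from the quasi-likelihood F. The common biological coefficient of variation was 0.503. DESeq2 1.42.0, limma 3.58.1, other scalings and filters, and leaving out each library were tried, and scripts were tested on simulated data. No 2 libraries agreed within sampling noise. 13 of the 44 genes share exonic bases with another gene, at most 6.07%.

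The collagen genes, the class, marker and assembly lists and the tests were chosen with earlier results of these data known. Named with values by library were the 12 of highest FPKM, the 4 of smallest p per comparison, the type IV chains, and up to 2 assembly genes per group and comparison. Other genes and libraries given by value were picked after their values were seen. Summed levels of neutrophil and satellite cell markers in all groups are given in the closing section.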

Additional observations from a re-analysis of the deposited data

How the results depend on the processing

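With 3 libraries a group, small differences of single chains were not detectable, and the 18259 genes included 0 calls in edgeR. Large fitted differences were not called either, such as -2.88 for Col12a1 in hydrogel against aspirin. The absence of calls is therefore no sign that a difference was small. DESeq2 called 2 collagen genes and 1 assembly gene for aspirin against control, 2 and 3 for hydrogel against aspirin, and 2 collagen genes for any difference, where edgeR called 0. DESeq2's log2 fold changes were -0.97 for Col4a1, -1.41 for Col15a1, -2.89 for Col12a1 and -0.96 for Col27a1.

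The libraries were not treated as paired, since the labels give the replicate numbers no shared source. Same-number correlations of their deviations were 0.26 to 0.62 for replicates 1 and 3 but -0.44 to 0.13 for replicate 2, and 6 of 9 libraries correlated best with their own number. A fit with the replicate number as a block called 0 collagen genes in each comparison, with 14, 10 and 19 higher, and put Col11a1 at 0.013 for aspirin against control and Col28a1 at -0.014 for hydrogel against control.

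Signs, and in some cases only sizes or counts, changed as follows. For aspirin against control, library size alone gave Col1a1 0.080, Col4a5 0.12, Col11a1 0.18, Col16a1 0.090 (log2 fold changes). Col11a1 was 0.18 in limma-voom and 0.0052 with only the 2 groups compared in the fit. Without a filter on low counts the fibrillar median was -0.011. The fibril-associated median, 0.61 in the main fit, kept its sign there but fell to 0.017. With at least 10 counts in every library the fibril-associated median was -0.027 and 9 genes were higher. For hydrogel against control, library size alone gave Col4a4 -0.055 and Col28a1 -0.14, limma-voom gave Col28a1 -0.045, and the type IV median with types XV and XVIII added was -0.19. For hydrogel against aspirin, library size alone gave 11 genes higher, Col4a1 -0.18 and Col5a3 -0.26, and the stricter filter gave medians of 0.0012 for all collagen genes and 0.074 for the other class. Leaving out single libraries gave, for aspirin against control, Col1a1 -0.25 to 0.17, Col1a2 -0.082 to 0.32, Col3a1 -0.11 to 0.37, Col4a5 -0.50 to 0.36, Col4a6 -1.37 to 0.33, Col5a2 -0.065 to 0.27, Col8a2 -1.59 to 0.89, Col11a1 -0.42 to 0.34, Col16a1 -0.32 to 0.073 and the fibrillar median -0.11 to 0.18. It gave, for hydrogel against control, Col4a4 -0.042 to 0.59, Col28a1 -0.27 to 0.32 and the fibril-associated median -0.19 to 0.060, and for hydrogel against aspirin Col5a3 -0.15 to 0.28, Col6a1 -0.20 to 0.11, Col6a2 -0.24 to 0.098, Col6a3 -0.24 to 0.0011 and the median of the other class -0.22 to 0.087. The cause was not tested.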

Other observations

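Summed levels of marker lists not given in full above were these. Neutrophil markers were at 16.5 to 155 CPM in controls, 31.5 to 350 CPM with aspirin and 10.6 to 25.3 CPM with aspirin and hydrogel, and satellite cell markers at 74.8 to 155 CPM, 62.6 to 175 CPM and 92.0 to 156 CPM in the same order. Adipocyte markers were at 488 to 2486 CPM with aspirin and hydrogel. Cartilage and bone markers were at 4.31 to 13.7 CPM, 4.27 to 7.74 CPM and 3.39 to 6.43 CPM. In edgeR's quasi-likelihood test 0 genes of any of the 12 marker lists were called. Their part in the collagen values was not tested.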
